A study of Mus musculus with 7 samples.

Results

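Accessible chromatin of proB cells was compared between Rescue and WT mice by ATAC-seq, in which reads mark the stretches of DNA that nucleosomes leave accessible. A peak is a stretch where the sequenced fragments pile up above the background of the library. Peaks of the WT proB list with no overlap of at least 1 bp in the Rescue proB list were called WT-only, and those of the Rescue proB list with no overlap in the WT list were called Rescue-only. There were 18906 WT-only peaks among 91668 and 18069 Rescue-only peaks among 91471, in a series of 647973 peaks over 7 libraries. In outline, 73.4% of the Rescue-only peaks overlapped a peak of pre-proB cells, against 30.9% of the WT-only peaks. For Rescue proB peaks shared with WT proB the share was 84.5%. Of the WT-only peaks, 49.8% were found in no other library. WT-only peaks held the EBF1 pattern 3.73% of the time against 0.531% in Rescue-only peaks, and the region from Kit to Kdr held 23 WT-only peaks and 0 Rescue-only peaks.

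ProB cells are bone marrow B-cell progenitors that carry CD43, rearrange the immunoglobulin heavy chain gene and test its product in the pre-B cell receptor before they become preB cells. The transcription factors E2A, EBF1 and PAX5 specify and hold the B lineage and open many of its enhancers, and RUNX1, PU.1 and further ETS factors act from earlier progenitors onward. Erg is a member of the ETS family, whose factors bind a core of GGAA.

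WT proB cells had the genotype Ergfl/fl, floxed Erg alleles with no Cre. Rescue proB cells had the genotype Rag1CreT/+;Ergdelta/delta;IgHVH10tar: Rag1Cre, active from common lymphoid progenitors onward and so in T-lineage and B-lineage cells alike, had deleted Erg, and IgHVH10tar is a knock-in heavy chain allele that is already functionally rearranged. The libraries therefore differed in Erg, in Cre, in the heavy chain allele and in the mice sampled, and these cannot be told apart with 1 library a side. No error between mice can be given, and no significance test was made. The study sorted proB cells by surface markers that included B220, CD43 and CD24. The 5 other libraries, used here only to see where a peak was also open, were WT pre-proB and WT preB of the WT genotype, Erg KO pre-proB (Rag1CreT/+;Ergdelta/delta), and Rescue pre-proB and Rescue preB of the Rescue genotype. Mice were aged between several weeks and a few months, and how many were pooled into a library was not stated.

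The stage of the Rescue library rests on its title. Its source name gives preB, and the library with proB as its source name is titled pre-proB. The Jaccard index, the bases covered by both lists over the bases covered by either, was 0.667 between Rescue proB and WT proB, 0.672 between Rescue proB and WT preB and 0.721 between Rescue proB and Rescue preB, so the data did not place the Rescue library nearer to WT proB than to WT preB. WT proB itself stood at 0.669 with WT preB and 0.665 with Rescue preB, so the index set neither proB library apart from the preB stage. The index was 0.474 between WT proB and the library with the proB source name. Promoters of all 13 genes of a pre-B receptor list (Igll1, Vpreb1, Vpreb2, Cd79a, Cd79b, Cd22, Blnk, Btk, Syk, Lyn, Blk, Plcg2 and Cd72) had a peak in both proB libraries, and also in WT pre-proB and both preB libraries, so they did not tell these stages apart. A defining proB gene that was not alike was Kit, given below.

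The strongest regions that were open in one proB library alone are shown first, as the 201 bases around the peak summit on the plus strand of the RefSeq GRCm38 (mm10) genome. Capitals mark every match to 1 of the 18 transcription factor patterns listed further on. These are 4 of the 5 highest-scoring WT-only peaks, each headed by its nearest coding gene and the position of the printed bases.
Lamb3, chr1:193303579-193303779: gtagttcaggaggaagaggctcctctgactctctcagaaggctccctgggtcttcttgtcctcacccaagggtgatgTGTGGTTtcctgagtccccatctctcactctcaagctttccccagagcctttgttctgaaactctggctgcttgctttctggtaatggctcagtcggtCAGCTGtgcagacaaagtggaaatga
Nkd2, chr13:73827558-73827758: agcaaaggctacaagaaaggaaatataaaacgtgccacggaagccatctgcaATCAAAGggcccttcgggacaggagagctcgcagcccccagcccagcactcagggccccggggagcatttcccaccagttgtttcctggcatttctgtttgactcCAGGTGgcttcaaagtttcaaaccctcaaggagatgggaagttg
Sertad4, chr1:192897217-192897417: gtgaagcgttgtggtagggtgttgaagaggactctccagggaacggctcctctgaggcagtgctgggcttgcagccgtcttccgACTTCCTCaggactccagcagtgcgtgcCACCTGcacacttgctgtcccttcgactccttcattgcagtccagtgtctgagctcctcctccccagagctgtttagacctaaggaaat
Lmo7, chr14:102398772-102398972: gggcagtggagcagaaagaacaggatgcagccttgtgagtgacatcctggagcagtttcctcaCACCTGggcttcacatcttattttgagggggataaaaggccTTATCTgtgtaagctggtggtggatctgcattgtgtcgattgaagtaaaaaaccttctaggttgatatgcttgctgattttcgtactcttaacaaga

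These are the 4 highest-scoring Rescue-only peaks.
Slit3, chr11:35403624-35403824: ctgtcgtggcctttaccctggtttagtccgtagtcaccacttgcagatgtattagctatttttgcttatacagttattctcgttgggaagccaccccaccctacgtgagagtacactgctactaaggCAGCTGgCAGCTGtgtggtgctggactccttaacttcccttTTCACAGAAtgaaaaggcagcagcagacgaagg
Olfr985, chr9:40125092-40125292: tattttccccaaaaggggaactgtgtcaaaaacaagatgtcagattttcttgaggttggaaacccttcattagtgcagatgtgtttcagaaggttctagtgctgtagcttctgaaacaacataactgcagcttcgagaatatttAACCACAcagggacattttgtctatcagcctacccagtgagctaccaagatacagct
Tusc1, chr4:93481362-93481562: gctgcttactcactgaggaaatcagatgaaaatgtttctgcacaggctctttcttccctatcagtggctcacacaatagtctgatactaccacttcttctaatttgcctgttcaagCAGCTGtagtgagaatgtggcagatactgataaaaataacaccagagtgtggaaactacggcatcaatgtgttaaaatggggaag
Ror1, chr4:100219728-100219928: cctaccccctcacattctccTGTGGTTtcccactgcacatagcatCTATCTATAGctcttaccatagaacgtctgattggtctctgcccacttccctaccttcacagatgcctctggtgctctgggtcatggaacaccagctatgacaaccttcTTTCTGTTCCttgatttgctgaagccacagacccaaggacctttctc

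A further set was chosen after the values were seen, because it carries the patterns and loci described below. It holds the highest-scoring WT-only peak with the EBF1 pattern (nearest gene Rsph6a), a Rescue-only peak with the composite ETS-IRF pattern (nearest gene Hgf), the highest-scoring WT-only peak between Kit and Kdr, and the highest-scoring Rescue-only peak among the D segments of Igh (nearest coding gene Adam6b).
Rsph6a, chr7:19050493-19050693: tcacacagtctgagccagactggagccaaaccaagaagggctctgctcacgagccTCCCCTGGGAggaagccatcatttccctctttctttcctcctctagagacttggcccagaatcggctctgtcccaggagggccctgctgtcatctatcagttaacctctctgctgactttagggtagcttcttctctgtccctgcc
Hgf, chr5:16461900-16462100: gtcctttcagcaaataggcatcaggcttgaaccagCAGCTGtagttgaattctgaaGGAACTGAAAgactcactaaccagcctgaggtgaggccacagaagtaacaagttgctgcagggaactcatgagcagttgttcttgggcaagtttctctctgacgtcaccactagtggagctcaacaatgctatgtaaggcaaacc
Kdr, chr5:75810398-75810598: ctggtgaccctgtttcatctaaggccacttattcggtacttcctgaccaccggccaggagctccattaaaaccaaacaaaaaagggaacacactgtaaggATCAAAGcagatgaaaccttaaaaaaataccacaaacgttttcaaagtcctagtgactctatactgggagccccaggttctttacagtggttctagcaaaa
Adam6b, chr12:113447487-113447687: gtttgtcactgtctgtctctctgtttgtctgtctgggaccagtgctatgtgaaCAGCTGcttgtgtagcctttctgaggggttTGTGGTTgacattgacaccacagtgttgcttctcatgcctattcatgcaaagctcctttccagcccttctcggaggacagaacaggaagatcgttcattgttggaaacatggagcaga

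The depth of the libraries can be read only from the folds, because the lists hold no read totals. The background pileup, the mean number of fragments over a base, was 4.42 in WT proB and 3.49 in Rescue proB, 1.27 times apart, and between 3.49 and 4.60 over the 7 libraries. The weakest called peak had a summit pileup of 12 fragments in WT proB and 10 in Rescue proB, so a region without a peak may still hold fewer fragments than that, and "only" means called in one list and not in the other. Peaks covered 64.1 Mb in WT proB and 61.9 Mb in Rescue proB.

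Of the WT proB peaks, 20.6% (95% Wilson interval 20.4 to 20.9%) were WT-only, and of the Rescue proB peaks 19.8% (19.5 to 20%) were Rescue-only. The intervals cover counting error only. With both lists cut to 91471 peaks the shares were 20.5% and 19.8%. WT-only peaks were weak within their list, with a median −log10 q of 6.86 against 37.4 for shared peaks, and Rescue-only peaks were as weak, at 6.35 against 29.9. Here q is the false discovery rate that the peak caller gave to a peak. Median widths were 305 bp against 583 bp in WT proB and 306 bp against 557 bp in Rescue proB. By rank, 50.3% of the WT peaks in the lowest-scoring quartile of the list were unshared and 1.20% in the highest, and the corresponding Rescue shares were 45.4% and 0.551%. None of the 1000 highest-scoring peaks of either list was unshared, which allows a share of up to 0.300%. Among peaks with a −log10 q of at least 10, 9.38% were WT-only and 9.03% were Rescue-only. At 100 or more, 263 WT-only peaks (1.16% of WT proB peaks of that score) and 57 Rescue-only peaks (0.287% of Rescue proB peaks) were left. At 200 or more the counts were 62 (0.427%) and 4 (0.0326%). An equal cutoff need not be equally strict in libraries of unlike depth. Near the limit of the rule, 2362 WT-only and 1971 Rescue-only peaks had a peak of the other list within 500 bp, and 145 WT and 152 Rescue peaks counted as shared overlapped by under 50 bp.

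**Figure D1:**
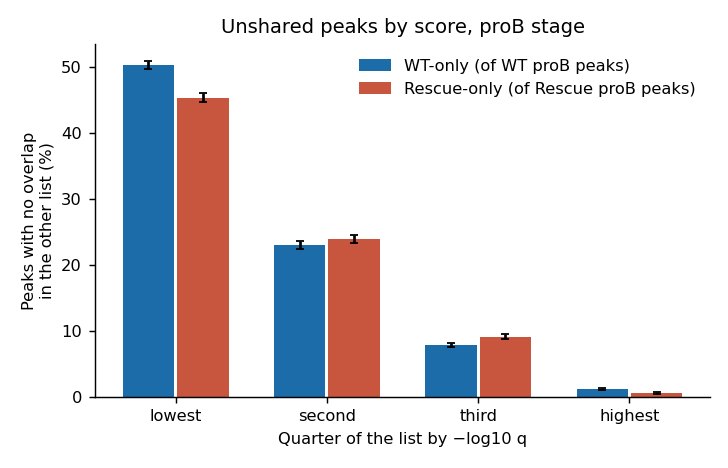
Share of peaks with no overlap in the other proB list (vertical axis, percent) by quartile of the list ranked on −log10 q (horizontal axis), for WT proB (blue) and Rescue proB (red), 1 library each; error bars are 95% Wilson intervals. In both lists the share drops from the lowest-scoring quartile (50.3% and 45.4%) to the highest (1.20% and 0.551%).

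Unshared peaks lay away from promoters in both directions. Only 9.98% (9.56 to 10.4%) of WT-only and 7.79% (7.41 to 8.19%) of Rescue-only peaks overlapped a promoter window, the 1000 bp on either side of a transcription start site (TSS), against 25.6% and 25.4% of shared peaks. Intron summits made up 49.8% of WT-only and 51.5% of Rescue-only peaks, and intergenic summits 35.8% and 36.6%. The median distance from the summit to the nearest coding TSS was 25.8 kb for WT-only peaks, 29.8 kb for Rescue-only peaks and 15.3 kb for the shared peaks of either list. Rescue-only peaks were farther out than WT-only peaks, with 36.9% (36.2 to 37.6%) against 32.8% (32.2 to 33.5%) over 50 kb from a coding TSS.

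The 2 sets differed in which other cells had the same regions open. Of the Rescue-only peaks, 63.9% (63.2 to 64.6%) overlapped a pre-proB peak of WT cells, 69.1% (68.4 to 69.7%) one of Erg KO cells and 70.2% (69.5 to 70.8%) one of Rescue cells. Of the WT-only peaks the shares were 21.5% (20.9 to 22.1%), 22.4% (21.8 to 23.0%) and 24.1% (23.5 to 24.8%). Shared peaks of Rescue proB stood at 79.8%, 79.3% and 80.2%, above both sets. Within score quartiles of the Rescue proB list, Rescue-only and shared peaks were close in WT pre-proB. From the lowest quartile to the highest, Rescue-only peaks stood at 53.3%, 74.9%, 86.5% and 93.7%, and shared peaks at 50.8%, 71.0%, 85.8% and 97.1%. WT-only peaks changed with score within the WT proB list. The 274 in its highest quartile stood at 74.8% in WT, 9.49% in Erg KO and 10.9% in Rescue pre-proB. In the lowest quartile the shares were 19.7%, 23.7% and 25.6%. Among peaks with a −log10 q of at least 10, the shares in WT pre-proB were 81.8% for Rescue-only and 24.7% for WT-only peaks. These shares were not recomputed with stages taken from source names.

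At the preB stage the 2 sets were closer. WT-only peaks were found in WT preB at 24.4% (23.8 to 25%) and in Rescue preB at 21.6% (21 to 22.2%). Rescue-only peaks were found in WT preB at 20% (19.4 to 20.6%), but in Rescue preB at 38.9% (38.2 to 39.6%). Shared peaks of WT proB were in WT preB at 86.0% and in Rescue preB at 91.4%. No other library had 49.8% (49.1 to 50.5%) of WT-only peaks and 14.4% (13.9 to 14.9%) of Rescue-only peaks, against 1.82% of the shared WT proB peaks.

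**Figure D2:**
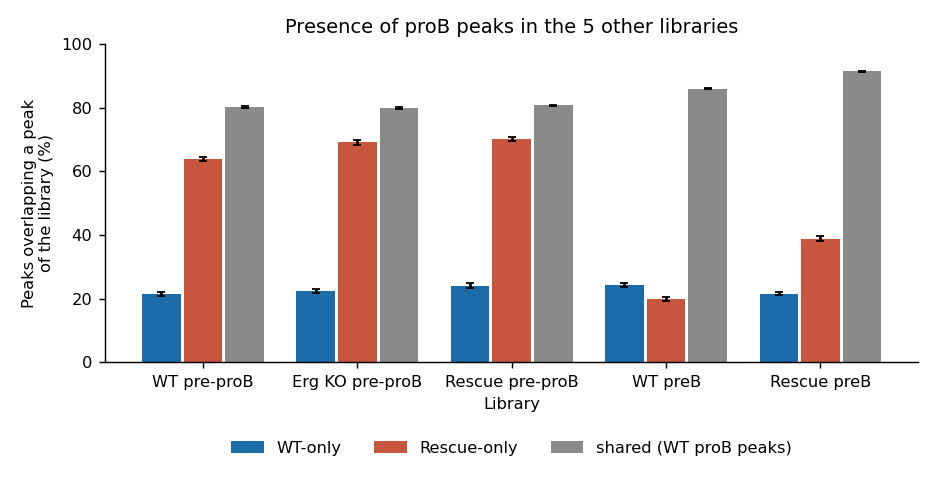
Share of peaks (vertical axis, percent) that overlapped a peak of each of the 5 other libraries (horizontal axis), for WT-only (blue), Rescue-only (red) and shared WT proB peaks (grey); error bars are 95% Wilson intervals over peaks, 1 library per bar group. Over all scores, Rescue-only peaks stand at 63.9 to 70.2% in the 3 pre-proB libraries. WT-only peaks stand there at 21.5 to 24.1% and shared peaks at 79.8 to 80.7%.

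By exact combination, 7021 Rescue-only peaks (38.9%) were in all 3 pre-proB libraries and neither preB library, a combination shown by 1704 WT-only peaks (9.01%). A further 2308 Rescue-only peaks (12.8%) were in the 3 pre-proB libraries and Rescue preB but not WT preB. Of the 411 Rescue-only peaks with a −log10 q of at least 50, 129 had the former and 184 the latter combination, and 8 were in no other library. The 803 WT-only peaks of that strength were of another make-up: 179 were in no other library and 159 were in both other WT libraries and in none of the 4 Erg-deleted ones. Over all scores 206 WT-only peaks (1.09%) had that WT-specific combination, in which the absence from Rescue proB was set by the rule. Their median −log10 q was 117 and they lay on all 21 chromosomes. The counterpart, Rescue-only peaks in the 3 other Erg-deleted libraries and in no WT library, numbered 202 (1.12%) with a median −log10 q of 5.63. Both combinations were thus about equally rare and differed in score.

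The named strongest peaks followed these combinations. The highest WT-only peak (chr1:193303047-193304498, fold 97.3 over background, −log10 q 865) overlapped the promoter window of Lamb3, a laminin chain, and was also in WT pre-proB and WT preB. Those were also the only other libraries with the peaks in Nkd2, an antagonist of Wnt signalling (chr13:73827062-73828480, fold 74.4), in Tmem132e (chr11:82410038-82411214, fold 63.1), in Cyth1 nearest to Dnah17 (chr11:118161756-118162773, fold 62.4) and far from Lmo7 (chr14:102398346-102399377, fold 64.6). Rescue preB was the further library with the peaks nearest to AC117239.2 in Commd10 (fold 86.6) and to Sertad4 in Syt14 (chr1:192896845-192897791, fold 68.9). The peak nearest to Aipl1 (chr11:71943324-71944047, fold 55.2) was in both preB libraries and no pre-proB library. So 5 of these 8 peaks were in both other WT libraries and in no Erg-deleted library.

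The highest Rescue-only peak (chr11:35403181-35404168, fold 80.6, −log10 q 572) lay in an intron of Slit3, a secreted guidance ligand. Like those in Ror1, a receptor of Wnt ligands (chr4:100218736-100220196, fold 38.3), in Fyb, an adaptor of lymphocyte adhesion (chr15:6588042-6588821, fold 32.7), in Mecom, a stem cell transcription factor (chr3:30412940-30413894, fold 31.6), in Iffo1 (fold 34.1), in Dync1li2 (fold 31.6) and nearest to Tusc1 (fold 46.3), it was in all 3 pre-proB libraries and in Rescue preB and was missing from both WT proB and WT preB. The peak nearest to Olfr985 (fold 49.9) was in all 5 other libraries. These 8 peaks had been open in WT pre-proB cells, so none of them was a region seen in Erg-deleted cells alone.

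Of 17492 coding genes that were nearest to a peak of either list, 6001 (34.3%) had no unshared peak and 4501 had both kinds. More WT-only than Rescue-only peaks were nearest to 5441 genes and fewer to 4670. A difference of at least 10 peaks toward WT was found at 44 genes and toward Rescue at 71.

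Genes with the largest excess of WT-only peaks included enzymes, transcription factors and stress-response genes. Xylt1, a xylosyltransferase that starts proteoglycan chains (chr7:117380979-117673580), had 53 peaks in WT proB and 31 in Rescue proB, of which 23 were WT-only and 2 Rescue-only. At pre-proB it had 45 (WT), 40 (Erg KO) and 45 (Rescue) peaks and at preB 51 (WT) and 33 (Rescue), so the preB libraries differed in the same direction. Zmat4 had 24 peaks in WT proB and 4 in Rescue proB, 20 of them WT-only against 0, and 9 of the 20 were also in WT preB. Sox9, a transcription factor of several progenitor types, had 30 peaks and 12, with 20 WT-only against 1. Cdh26, a cadherin, had 20 WT-only against 1, Med13l, a Mediator subunit, 20 against 5, and Phlda1 19 against 3. Trabd2b had 18 against 2, Gadd45g, a growth arrest gene, 16 against 1, and Frmd6 and Tas2r134 14 against 0. At the preB stage, with WT and Rescue lists of equal length, all 10 of these genes again had more WT-only than Rescue-only peaks. That cut removed the weakest Rescue preB peaks and no WT preB peaks. In the full preB lists each gene had more peaks in WT, but by as few as 52 against 51 at Med13l and 37 against 35 at Cdh26.

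Genes with the largest excess of Rescue-only peaks included a regulator of early B cells. Mef2c, a transcription factor of lymphoid progenitors and B cells (chr13:83504034-83667080), had 89 peaks in WT proB and 111 in Rescue proB. Of these 8 were WT-only and 31 Rescue-only, and 14 of the 31 were in WT pre-proB and 20 in Rescue preB. The 31 were 27.9% of its Rescue proB peaks, beside 19.8% over all peaks, and their highest −log10 q was 21.4. Nrp1, which encodes the receptor neuropilin-1, had 49 and 69 peaks, with 5 WT-only and 24 Rescue-only. Cited2, a transcriptional co-regulator of stem cells, had 7 WT-only and 25 Rescue-only, Slc16a7, a monocarboxylate transporter, 4 and 23, and Ttll7 3 and 24. Sel1l, part of the degradation machinery of the endoplasmic reticulum, had 5 and 28, and Fhit 4 and 22. A difference of counts can grow with the number of peaks at a gene. As shares of Rescue proB peaks, Rescue-only peaks made up 34.8% at Nrp1, 36.8% at Cited2, 67.6% at Slc16a7, 58.5% at Ttll7, 48.3% at Sel1l and 55.0% at Fhit. Prl2c3 (5 and 31) and Zfp988 (6 and 25) belong to multicopy families whose reads may be placed on any copy, and the highest −log10 q of their Rescue-only peaks was only 7.86 and 12.9.

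These ranks depend on how a peak is given to a gene. When any annotated gene could be the nearest, 1 of the 10 WT-only genes and 0 of the 10 Rescue-only genes stayed among the first 10, although 7 and 9 kept their direction. With peaks of −log10 q of at least 10, 5 and 1 stayed, and 10 and 8 kept their direction.

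**Figure D3:**
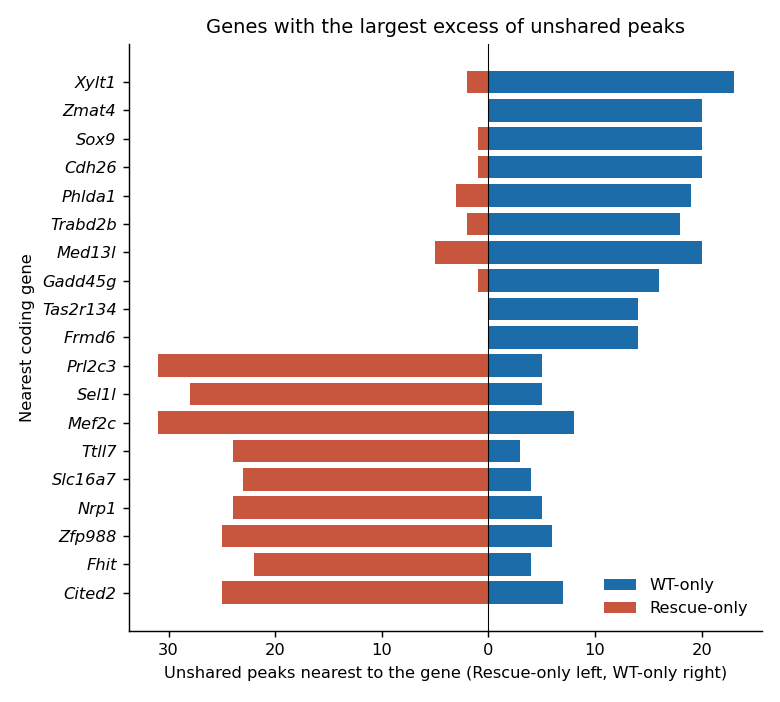
Unshared peaks (horizontal axis, count) nearest to 19 of the 20 coding genes with the largest difference (vertical axis), WT-only to the right in blue and Rescue-only to the left in red, 1 library each. Xylt1 has 23 WT-only peaks against 2 and Mef2c 31 Rescue-only peaks against 8.

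WT-only peaks also gathered around Kit, the receptor for stem cell factor, which proB cells use and preB cells lose. From the start of Kit to the end of the neighbouring gene Kdr (chr5:75574916-75978458), 39 WT proB peaks stood against 16 Rescue proB peaks, and 23 of the 39 were WT-only with 0 Rescue-only. Of the 23, 9 were nearest to Kit and 14 to Kdr, and the span was chosen after its values were seen. The pre-proB libraries had 34 (WT), 31 (Erg KO) and 36 (Rescue) peaks there and the preB libraries 12 (WT) and 13 (Rescue). The Rescue proB count was thus close to both preB counts, and the WT proB count to the pre-proB ones. The strongest WT-only peak there (chr5:75810164-75810969, fold 19.2, −log10 q 98.4), printed above with a TCF/LEF match at position 101, was also in WT pre-proB. None of the 23 was in WT preB or Rescue preB, 12 were in a pre-proB library, and 11 were in no other library. By nearest TSS, Kit itself had 13 peaks in WT proB and 3 in Rescue proB, 10 of them WT-only, and the Kit promoter had a peak in both.

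In windows of 500 kb, counted over 3425 windows with at least 10 peaks, 143 had an excess of at least 10 WT-only peaks and 98 of at least 10 Rescue-only peaks. The widest excess of WT-only peaks was at chr1:88000001-88500000 near Mroh2a and Trpm8, with 31 against 4, followed by the window with Kit and Kdr and by chr12:70500001-71000000 with Frmd6, with 21 against 0. The window chr11:113000001-113500000 holds Slc39a11, and 10 of its 23 WT-only peaks (against 3 Rescue-only) had Sox9 as nearest gene. At chr6:115500001-116000000, near Tmem40, the counts were 23 against 3, and at chr4:120000001-120500000, with Edn2 and Foxo6, 22 against 2.

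Toward Rescue, the windows of chromosome 4 (chr4:147000001-147500000, 50 Rescue-only against 15) and chromosome 13 (chr13:12500001-13000000, 42 against 14) are the multicopy Zfp988 and Prl2c3 regions, with a median −log10 q of 4.93 and 3.61. Further windows were chr16:48500001-49000000, with Trat1, a T-cell receptor adaptor, at 21 against 0, and chr8:127500001-128000000, between Pard3 and Nrp1, at 21 against 1. In chr11:29500001-30000000 the counts were 24 against 2. Of those 24, 13 were nearest to 4931440F15Rik, 6 to Rtn4 and 5 to Eml6. The Trat1 window had 41 (WT), 46 (Erg KO) and 48 (Rescue) peaks at pre-proB, 14 (WT) and 35 (Rescue) at proB and 10 (WT) and 28 (Rescue) at preB. There the Rescue proB count lay between those of pre-proB and WT proB.

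The window chr12:113000001-113500000 holds the constant and J segments and part of the D segments of Igh, with 23 Rescue-only peaks against 3. From the first constant gene to the V segments (chr12:113254830-113572926) 31 Rescue proB peaks stood against 19 in WT proB, with 15 Rescue-only and 1 WT-only. Among the strongest were 3 at the D segments, nearest to Ighd3-2 (chr12:113447169-113447860, fold 23.8, and chr12:113446052-113446539, fold 9.35) and Ighd4-1 (chr12:113430193-113431205, fold 15.8). All 3 were in the pre-proB libraries and Rescue preB and not in WT preB. D segments between the joined D and J are removed by rearrangement, so fewer copies of this stretch and less open chromatin on each copy cannot be told apart in the WT list, and the knock-in allele also differs here. A broad peak at the far end beside Igha (chr12:113253654-113261151, fold 15.6) was about as strong as the one nearest to Ighd4-1. It was in both preB libraries and no pre-proB library.

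Over the whole of Igh (chr12:113254830-116010093), 19.2% (14.5 to 25.1%) of 208 WT proB peaks and 25.5% (20.2 to 31.6%) of 220 Rescue proB peaks were unshared. In V segments cut into 3 parts of equal length, the part nearest to the D segments had 17 WT-only and 9 Rescue-only peaks, the middle part 7 and 18, and the far part 15 and 14. V segments resemble each other closely, and reads may have been assigned to the wrong one. Igk had 24 WT-only peaks of 213 (11.3%, 7.69 to 16.2%) and 39 Rescue-only of 224 (17.4%, 13 to 22.9%).

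Among T-cell receptor loci, the one with the most Rescue-only peaks was Tcra/Tcrd. That locus (chr14:52427928-54224206) had 39 peaks in WT proB and 57 in Rescue proB, of which 24 (42.1%, 30.2 to 55.0%) were Rescue-only and 7 (17.9%, 8.98 to 32.7%) WT-only. At pre-proB it had 61 (WT), 92 (Erg KO) and 90 (Rescue) peaks and at preB 14 (WT) and 59 (Rescue), and 21 of the 24 Rescue-only peaks were in both Erg-deleted pre-proB libraries. Tcrb had 11 WT-only of 40 and 7 Rescue-only of 36, and Tcrg 0 of 13 and 5 of 18.

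By the ratio of shares the 2 sets were farthest apart for the EBF1 pattern, and by the difference of shares for CTCF. Patterns were searched on both strands within 100 bp of the summit. For B-lineage factors these were TCCCNNGGGA for EBF1, CAGCTG for E2A, the related E-box written as CAGGTG, and ATGCAAAT for the OCT factors. For factors of earlier progenitors they were CCGGAAGT for the ETS family, GAGGAAGT for PU.1, TGTGGTT for RUNX factors, and AGATAA for GATA factors. CTTTGAT stood for TCF/LEF, the factors that answer Wnt signals, GAAANNGAAA for IRF and GGAANNGAAA for the composite site of an ETS factor with an IRF. The remaining ones were TGANTCA for AP-1, TGTTTAC for FOXO factors, CCNNNAGNNGGC for CTCF, GGGANNTTCC for NF-kB, CTANNNNTAG for MEF2, TTCNNNGAA for STAT and GGGNGTGG for KLF. The IRF and ETS-IRF patterns can overlap each other, as can ETS, PU.1 and ETS-IRF. A match is a run of letters and not a measured binding site.

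WT-only peaks held the EBF1 pattern at 3.73% (3.47 to 4.01%), shared WT proB peaks at 2.01% (1.91 to 2.12%) and Rescue-only peaks at 0.531% (0.435 to 0.648%). The same letters in reverse order were in 0.608%, 0.636% and 0.454%, and 0.593% of windows of equal length at coding TSSs held the pattern. At a −log10 q of at least 10 the difference was wider, 5.48% against 0.341%. Within the WT-only set it was in 4.81% of peaks in no pre-proB library and in 1.32% of those also in one, and within the Rescue-only set in 1.52% and 0.173%. The TCF/LEF pattern went the same way, with 5.63% (5.31 to 5.97%) of WT-only, 2.60% of shared and 2.02% (1.82 to 2.24%) of Rescue-only peaks, and 1.94% of TSS windows. Its letters in reverse order were in 2.69% of WT-only and 4.36% of Rescue-only peaks. Among the listed genes for these factors, Lef1 had 16 WT-only peaks against 2 Rescue-only, with 35 peaks in WT proB and 21 in Rescue proB, Tcf7 had 7 against 1, and Ebf1 had 8 against 10.

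Rescue-only peaks held the PU.1, IRF, RUNX and E2A patterns more often than WT-only peaks, with shared WT proB peaks in between. The gap was thus partly a lower share in WT-only peaks, except for RUNX, where WT-only and shared peaks were close. ETS-IRF was in 6.62% (6.27 to 6.99%) of Rescue-only and 2.37% (2.16 to 2.60%) of WT-only peaks, IRF in 6.21% (5.87 to 6.57%) and 3.21% (2.97 to 3.47%), PU.1 in 8.07% (7.68 to 8.48%) and 4.88% (4.58 to 5.19%), RUNX in 13% (12.5 to 13.5%) and 9.04% (8.64 to 9.46%), and E2A in 22.2% (21.6 to 22.8%) and 16.8% (16.3 to 17.3%). In the same order, shared WT proB peaks held these patterns at 4.29%, 3.95%, 6.92%, 9.25% and 19.6%, and TSS windows at 1.47%, 1.91%, 2.22%, 3.11% and 12.5%. Outside promoter windows, PU.1 was in 8.28% of Rescue-only and 8.05% of shared Rescue proB peaks, against 5.07% of WT-only peaks. E2A was there in 22.3% of Rescue-only and 16.9% of WT-only peaks, with shared peaks nearer to Rescue-only. RUNX stayed higher in Rescue-only than in shared Rescue proB peaks, 13.3% against 10.8%, as did ETS-IRF, 6.73% against 5.02%. Within the Rescue-only set the PU.1 pattern was in 9.46% of peaks also in a pre-proB library and in 4.24% of the rest, and RUNX in 14.8% and 8.0%. OCT went the other way, 1.17% and 6.24%, beside 0.871% of TSS windows. CTCF, the insulator protein, was in 11.5% (11.1 to 12%) of WT-only and 5.39% (5.07 to 5.73%) of Rescue-only peaks, both under the 14.2% of shared peaks, and in 7.02% of TSS windows. The ETS pattern preferred at promoters was rare in both sets, at 0.471% and 0.227% against 1.59% of shared peaks, and outside promoter windows it was in 0.661% of shared WT proB peaks. FOXO, at 2.80% and 2.86%, OCT, at 2.65% and 2.52%, STAT, at 6.01% and 6.54%, KLF, at 7.50% and 7.26%, and the E-box CAGGTG, at 20% and 21%, had overlapping intervals between WT-only and Rescue-only peaks. GATA, at 8.10% and 9.18%, AP-1, at 6.80% and 7.79%, MEF2, at 3.01% and 3.81%, and NF-kB, at 0.857% and 1.15%, were higher in Rescue-only peaks with intervals that did not overlap. Base composition also differed, with a median GC content of 49.3% in WT-only, 47.3% in Rescue-only and 51.2% in shared peaks, and its part in these shares was not tested.

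**Figure D4:**
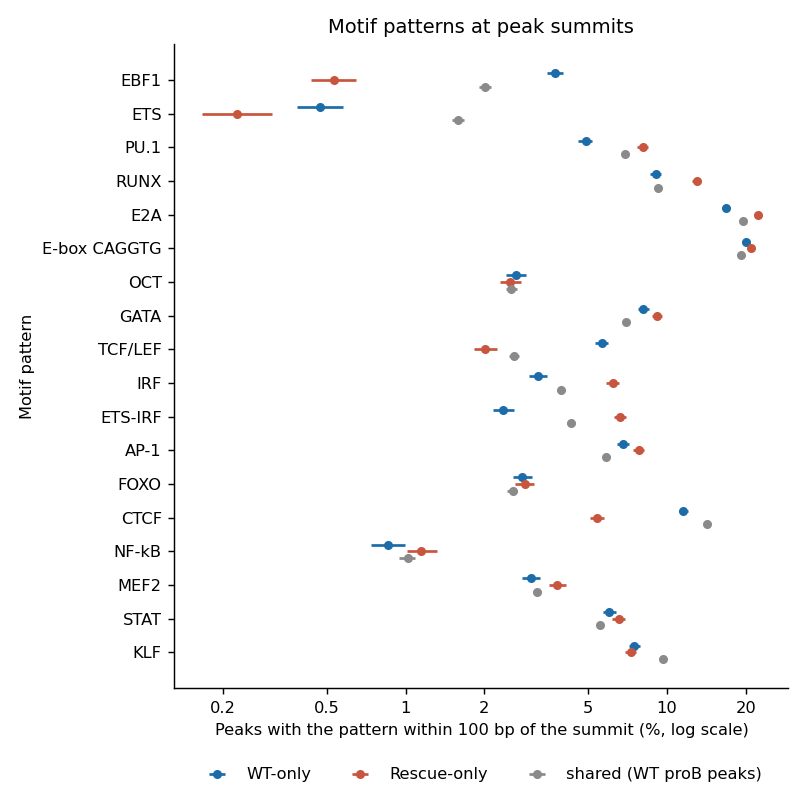
Share of peaks (horizontal axis, percent, log scale) with each of the 18 patterns (vertical axis) within 100 bp of the summit, for WT-only (blue), Rescue-only (red) and shared WT proB peaks (grey); bars are 95% Wilson intervals over peaks, 1 library a side. EBF1 stands at 3.73% of WT-only and 0.531% of Rescue-only peaks, and ETS-IRF at 2.37% and 6.62%.

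Promoters differed little. Of 21938 coding genes, 13927 had a promoter peak in both proB libraries, 451 (2.06%) in WT proB alone and 293 (1.34%) in Rescue proB alone. Of the 293, 59.4% (53.7 to 64.9%) were also open in WT pre-proB, against 19.5% (16.1 to 23.4%) of the 451. In 426 of the 451 and 276 of the 293 the strongest promoter peak was itself unshared. In the others it overlapped a peak of the other list that ended outside the promoter window, so the region was open in both libraries. The highest-scoring promoters in Rescue proB alone were of this latter kind: those of Smug1, a uracil DNA glycosylase (fold 58.6), and of Clec9a and Xcr1, receptors of cross-presenting dendritic cells (fold 31.6 and 25.2). The promoter window of Clec9a also had a peak in all 3 pre-proB libraries and in Rescue preB, and had none in WT preB. Gm15155, Nxpe5 and Urad were of the same kind, with folds of 23.8, 20.5 and 17.6, whereas the peaks at Cubn, an endocytic receptor (fold 19.6), and Prss30 (fold 16.7) were unshared. Among promoters in WT proB alone, Cldnd2 (fold 58.5), Cldn14, a claudin (fold 38.2), and Cacna1f, a calcium channel (fold 33.2), again had a shared peak. The peaks of Ctla2a and its neighbours Gm49391 and Gm49393, which are a single one (fold 38.2), of Slc7a9, an amino acid transporter, and of Rbp2, a retinol-binding protein (both fold 28.1), were unshared.

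Gene lists were read against the share of all peaks, 20.6% WT-only and 19.8% Rescue-only. They were chosen with earlier results of these data known, and no set test was made. In the B-lineage factor list 16.5% (13.5 to 20.1%) of WT proB peaks were WT-only and 23.4% (20 to 27.2%) of Rescue proB peaks Rescue-only, and of its 16 genes 4 had more WT-only and 10 more Rescue-only peaks, with a median difference of -1.50 peaks against 0 over all coding genes. At a −log10 q of at least 10 the shares were 6.59% and 9.33%, beside 9.38% and 9.03% of all peaks, so the Rescue-only share was then close to that of all peaks. Besides Mef2c, Bach2, a repressor of plasma cell fate (8 WT-only, 20 Rescue-only), Myc (6 and 18), Irf8 (2 and 10) and Klf2 (0 and 5) leaned to Rescue. Lef1, Foxo1, a factor needed for Rag expression (12 and 6), and Pax5 (11 and 5) leaned to WT. All 16 promoters were open in both libraries.

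For Ebf1 (chr11:44617317-45008091), 54 peaks in WT proB and 55 in Rescue proB were nearest, with 8 WT-only and 10 Rescue-only. The pre-proB counts were 36 (WT), 35 (Erg KO) and 32 (Rescue), so both proB libraries were above all pre-proB ones. Pax5 (chr4:44524757-44710487) had 34 and 29 peaks, against 18, 16 and 17 in the pre-proB libraries. Around Erg itself (chr16:95359169-95586593) 48 and 41 peaks were nearest, 11 of them WT-only and 3 Rescue-only. The strongest WT-only one (chr16:95460242-95460775, fold 14.6) overlapped the window of a TSS inside the gene and was in no other library. Cre removes a single exon, and peaks elsewhere in the gene check nothing about the deletion.

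In the list of 18 genes given by the study as an Erg-dependent network, all promoters were open in both proB libraries, and 22.1% (17.9 to 27.1%) and 22.3% (18 to 27.3%) of their peaks were unshared. The list was chosen by the study on mice of these genotypes and is no independent evidence. The pre-B receptor list had fewer unshared peaks than the average, 10.9% (6.75 to 17.3%) and 14% (9.34 to 20.5%), with Syk (2 WT-only and 8 Rescue-only) and Lyn (1 and 6), kinases of the receptor, leaning to Rescue and Blnk, its adaptor (3 and 1), to WT. The recombination and repair list had 6 WT-only peaks of 34 and 3 Rescue-only of 31. In the IL-7 receptor pathway list (14.5% and 19.5%), Bcl2, a survival gene, had 4 WT-only and 15 Rescue-only peaks, and Jak1, a kinase of the receptor, 6 and 2. The preB transition list stood at 12.1% and 13.9%, and the cell cycle list at 22.7% and 23.2%, where Mki67 had 14 WT-only and 8 Rescue-only peaks.

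In the ETS family list 21.9% and 16.8% of peaks were unshared. Erg (11 and 3), Elf1 (6 and 0) and Etv6 (13 and 8) leaned to WT and Ets1 (11 and 17) to Rescue, and the promoter of Spic had a peak in Rescue proB alone (−log10 q 8.65). The stem and progenitor list was above the average in both directions, 30% (22.8 to 38.4%) and 24.3% (17.4 to 32.9%). Besides Kit, Mycn leaned to WT (9 and 3), whereas Mecom (0 and 8) and Meis1 (4 and 8) leaned to Rescue. All 8 of the Rescue-only peaks at Mecom were in each of the 3 pre-proB libraries.

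Lists of markers of other lineages had few open promoters that differed. Of 10 T-cell genes 6 had a promoter peak in each library, with Cd4 and Bcl11b in WT alone and Cd3g and Cd8a in Rescue alone. The former pair was also open in Erg KO and Rescue pre-proB but not in WT pre-proB, and the latter pair in WT pre-proB. Of 10 NK and innate lymphoid genes 7 were open in WT proB and 8 in Rescue proB, with Zbtb16 in Rescue proB and all 3 pre-proB libraries. Of 10 plasmacytoid dendritic genes 9 were open in each, of 10 myeloid genes 5 and 6, with Cebpe in Rescue proB and both preB libraries, and of 7 erythroid genes 4 in each. Counting all peaks, the plasmacytoid dendritic list had 12.9% (8.65 to 18.7%) WT-only and 23.2% (17.8 to 29.6%) Rescue-only, with Siglech, a marker of these cells, at 0 and 5 and all 5 of the latter in WT pre-proB. At a −log10 q of at least 10 the list stood at 6.2% and 6.77%, both under all peaks. The T-cell list had 35.0% (24.2 to 47.6%) and 28.1% (18.1 to 40.8%). The part of such cells in the comparison was not tested, and fewer cells with a region open and less open chromatin per cell cannot be told apart in pooled cells.

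The plasma cell and late B list was the one with the widest gap, 12.4% (7.38 to 20%) WT-only and 27.7% (20.7 to 35.9%) Rescue-only, and 1.41% and 18.2% at a −log10 q of at least 10. Prdm1, which drives plasma cells, had 4 WT-only and 15 Rescue-only peaks, Sdc1 0 and 5, Cd86 0 and 4, and Jchain, the joining chain of polymeric immunoglobulin, 0 and 4 with a promoter peak in Rescue proB and in no other of the 7 libraries (chr5:88527641-88528101, −log10 q 36.6). Cr2, the complement receptor of mature B cells, leaned to WT (6 and 2). The housekeeping list had 13.3% (6.26 to 26.2%) and 19.6% (11.0 to 32.5%), the myeloid list 27.3% and 17.5% with Csf3r at 8 and 1, the NK and innate lymphoid list 15.8% and 22.1%, and the erythroid list 19.2% and 16%.

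**Figure D5:**
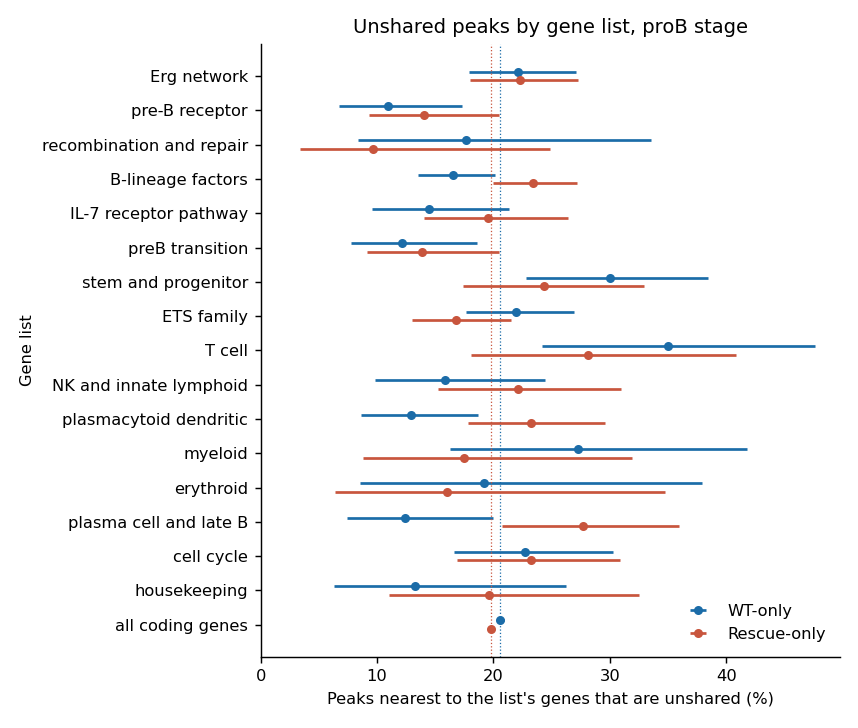
Share of the peaks nearest to the genes of each list (vertical axis) that were WT-only (blue, of WT proB peaks) or Rescue-only (red, of Rescue proB peaks), in percent (horizontal axis), with 95% Wilson intervals, 1 library a side; dotted lines mark all peaks, 20.6% and 19.8%. The intervals of the 2 colours do not overlap for the plasma cell and late B list, with 12.4% against 27.7%.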

How the data were processed

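ATAC-seq peak lists of 7 mouse libraries, 1 per group, were used as deposited, and groups followed the sample titles. According to the methods of the study and the submitters' processing notes, reads were base-called with CASAVA 1.8.2, aligned to mm10 with Bowtie2, handled with Picard and called with MACS2, with no version or option stated. The methods name sonication and the labels' protocol names Tn5 tagmentation, which affects cut positions and hence peak widths. Per the values, the deposited score equals the −log10 q multiplied by 10 without its decimals, in 100% of 647973 peaks, the fold they deposited was a ratio of summit to background pileup, and the −log10 p and −log10 q they deposited were those of the summit. Folds and scores ranked peaks within a list, and the same cutoffs on them were also applied to both lists. The libraries differed in background pileup, so an equal cutoff need not be equally strict in both. Folds came in whole steps of 1 over the background pileup plus 1, which gave the pileups.

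Here overlaps of at least 1 bp, nearest TSSs and promoters (GENCODE M21), motif matches on GRCm38 and Wilson intervals were computed with Python 3.11.15, numpy 2.4.6 and pandas 2.3.3, and checked on simulated intervals. All peaks lay within GRCm38 lengths. Coordinates count from 1. Named were Erg, Ebf1 and Pax5, the 10 coding genes with the largest difference of unshared peaks each way, the 8 strongest unshared peaks and promoters each way, 6 windows each way, and list genes with an unshared promoter or the most unshared peaks. Of the items this rule names, 1 gene is not reported here. Further named genes of the lists, the region from Kit to Kdr and the D segments were chosen after their values were seen. The members and lists were chosen with earlier results of these data known. Alternatives were lists of equal length or with a stricter q, other definitions of overlap and windows, and stages read from source names. With 1 library per group no test was run.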

Additional observations from a re-analysis of the deposited data

Results flagged for a closer look

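Of the 20 genes with the largest differences, 3 had the opposite sign at preB, where WT and Rescue lists of equal length were compared. The proB differences came from the full lists. At preB the cut to 76465 peaks removed the weakest Rescue peaks and no WT peaks. Prl2c3 had 26 more Rescue-only than WT-only peaks at proB (a WT-only minus Rescue-only difference of -26) and a difference of 2 at preB. Sel1l went from -23 to 3 and Zfp988 from -19 to 12. In the full preB lists all 3 had more peaks in Rescue than in WT. The counts were 15 against 7 at Prl2c3, 56 against 50 at Sel1l and 57 against 52 at Zfp988. The part of the cut in the change of sign was not tested. Prl2c3 and Zfp988 belong to multicopy families. Of the other genes with the largest Rescue-only excess 6 kept their direction at preB and Mef2c had a difference of 0.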

How the results depend on the processing

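The Rescue-only share in WT pre-proB stayed above the WT-only share, and promoters stayed a minority of unshared peaks, under every alternative run for them. In order WT-only and Rescue-only, the shares were 18% and 17.7% in lists of 45735 peaks, 21.1% and 16.9% with a −log10 q of at least 10 in either list, 9.38% and 9.03% when only the peaks tested had to reach it, 28.6% and 28.4% with a reciprocal overlap of 50%, 21.9% and 21% by summit, 18% and 17.6% when a peak within 500 bp counted, and 31.0% and 40.2% with the stage taken from source names. With the −log10 q of at least 10 and with the reciprocal overlap, WT-only peaks were in WT preB at 33.2% and 37.1% and in WT pre-proB at 24.7% and 34.7%, Rescue-only peaks were in WT pre-proB at 81.8% with the former and in Rescue preB at 47.0% and 50.4%, WT-only peaks in promoters were 7.65% and 12.6% and Rescue-only 6.71% and 11.2%. Promoters in 1 list alone numbered 136 (WT) and 107 (Rescue) at a −log10 q of at least 10, and in the lists of 45735 peaks 308 and 349, with Rescue the higher. Apart from fewer peaks being compared, the cause was not tested. The Jaccard index was 0.674 in lists of 76465 peaks. For the shares of unshared peaks, their presence elsewhere, promoters and the Jaccard index, 28 values moved and 17 did not. For single genes, gene lists, motifs and loci, 34 values moved and 24 did not. No paired analysis was possible because each group has 1 library. The weakest called peaks held 12 (WT) and 10 (Rescue) fragments, so depth limits what "only" means, and background pileup was 1.27 times higher in WT proB.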
